A study of Mus musculus with 11 samples.

Results

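The tumours compared here carried the same oncogene pair, MYC with Gfi1, but differed in the cells in which it was expressed. In 3 libraries the labels give expression in S100b-positive cells, and in 2 libraries they give constitutive expression. The 5 libraries were taken, by their oncogene and expression labels, from the 11 of a series on mouse medulloblastoma models. Of 38406 genes in the count table, 15228 passed the low-count filter and were compared by edgeR's quasi-likelihood test on counts of reads from the 3′ ends of transcripts. All 5 were of cerebellar tumours from mice of strain CD1, frozen fresh and not treated further. The other 2 groups, with 3 libraries each, carried MYC with Otx2 constitutively, or MYC with Gfi1 and N1ICD (the active inner fragment of Notch1) in cells positive for Math1. Details not stated include how expression was limited to S100b-positive cells, whether the groups differed in age, and whether each library came from a separate animal (not given in the sources used here).

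Medulloblastoma is a malignant tumour of the cerebellum, and amplified MYC marks its Group 3. MYC is a transcription factor that raises the production of ribosomes and the entry into the cell cycle, and Gfi1 is a zinc finger repressor that can act together with MYC in this tumour. S100b is a calcium-binding protein made by astrocytes, Bergmann glia and some progenitors, so the comparison sets the same oncogenes against a different range of starting cells.

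Compared with the constitutive MYC/Gfi1 tumours, genes called higher in the S100b-cell tumours included some for ribosome assembly, DNA replication, mitosis and the mitochondrial genome. Genes called lower included some for synaptic vesicles and the neuronal cytoskeleton, the progenitor factors Sox1 and Sox3, and the immunoglobulin gene Igha. In all, edgeR called 663 genes at a Benjamini-Hochberg adjusted p under 0.05 (4.35% of those tested), of which 357 were higher in the S100b-cell tumours (2.34%) and 306 were lower (2.01%). Another scaling moved this split: with RLE size factors 44.6% of the calls were higher, and with upper-quartile factors 62.6%, against 53.8% here. The calls rested on a spread between libraries that was pooled over all 4 groups. A fit of the 5 libraries by themselves gave 0 calls in edgeR (3287 genes below 0.05 before adjustment), while limma-voom and DESeq2 on the 4 groups called 1398 and 2306. P-values here measure the spread between libraries, which may be partly technical.

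The constitutive libraries were unlike each other. Their totals were 7.53 and 6.53 M counts, against 12.8 to 15.2 M in the S100b-cell libraries. Across the tested genes, Spearman's rho was 0.816 between the constitutive libraries and 0.912 to 0.946 between S100b-cell libraries. Constitutive replicate 1 had a rho of 0.853 to 0.886 with the S100b-cell libraries, higher than with its own partner. Constitutive replicate 2 had 5542 CPM (counts scaled to a common library total) summed over mature granule neuron markers, against 226 CPM in replicate 1 and 158 to 199 CPM in the S100b-cell libraries. Leaving out this replicate left 61 calls (34 higher, 27 lower), and leaving out replicate 1 gave 1995. Without S100b-cell replicate 1, 2 or 3 the calls numbered 12, 137 and 55. The constitutive libraries of both oncogene pairs also share a style of library name, and the S100b-cell and N1ICD libraries each have their own. Of the 357 genes called higher, 248 (69.5%) had every S100b-cell and N1ICD library above all 5 constitutive libraries, against 908 (26.6%) of the 3417 genes with every S100b-cell library above both constitutive MYC/Gfi1 libraries. Of the 306 called lower, 154 (50.3%) had the reverse order, against 617 (21.5%) of 2876. The calls used the spread within all 4 groups, which by itself can raise these shares among called genes. A difference between library sets and one between modes of expression cannot be told apart.

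**Figure D1:**
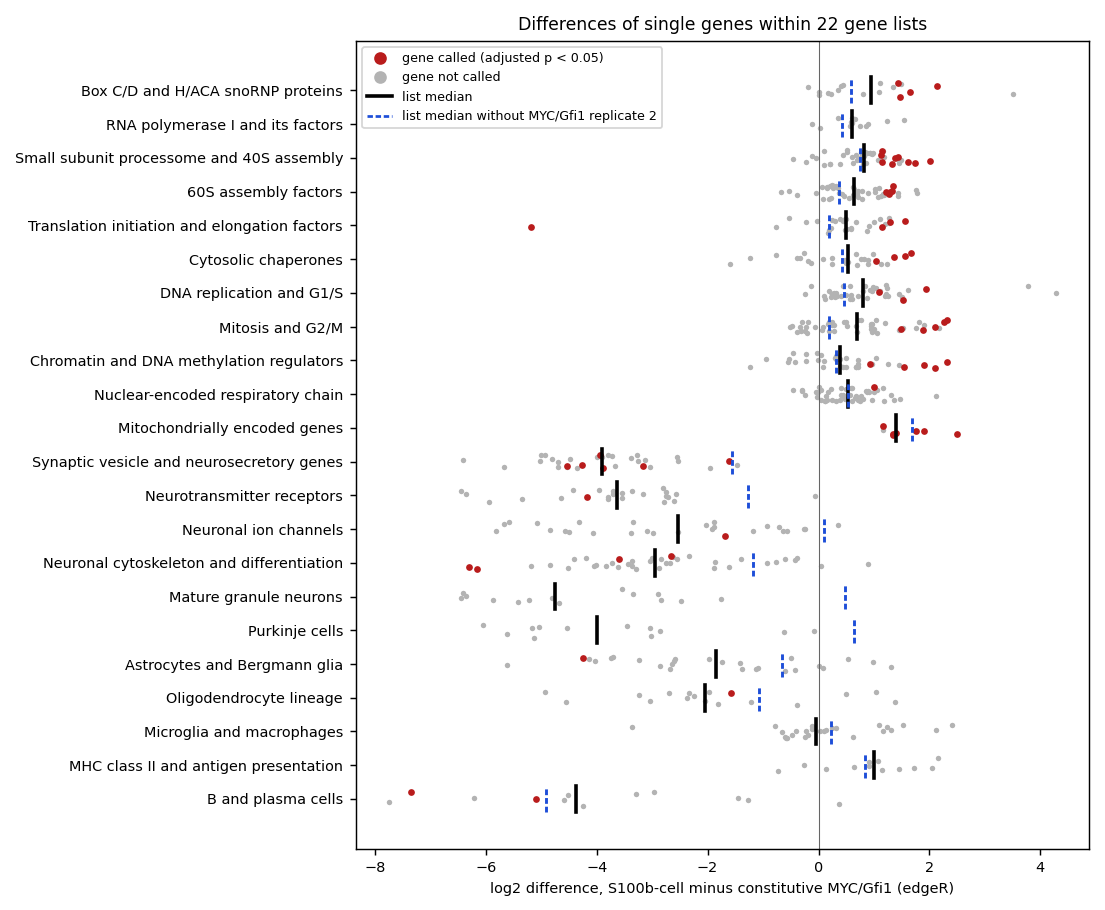
Log2 difference of each tested gene in 22 of the gene lists, S100b-cell minus constitutive MYC/Gfi1 tumours. Red points are genes called by edgeR at an adjusted p under 0.05, grey points are not called, black bars are list medians and dashed blue bars are the medians without constitutive replicate 2. The ribosome assembly medians stay right of 0 without that replicate, while those of mature granule neurons and Purkinje cells move from -4.75 and -3.99 to 0.47 and 0.65.

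Of the 357 genes called higher, 10 were called in each of the 5 fits that leave out 1 library, and 16 more in 4 of them. Of the 306 called lower, none was called in all 5 fits and 4 in 4 of them. The first set included mt-Nd2, Rps14, Rpl31-ps8, Wasf2, Pinx1, Rpp38 and Rpl26, and 2 numbered gene models. In the sentences that follow, values are given in the order of the replicates, as CPM over scaled library totals, and positions are those of a GENCODE annotation of GRCm38, the build also called mm10. Pinx1, a nucleolar protein that binds telomerase, lies at chr14:63860364-63919859 and was at 5.83 and 5.37 CPM in the constitutive libraries and 69.5, 44.5 and 45.5 CPM in the S100b-cell libraries (log2 difference 3.24 ± 0.36 SE, edgeR adjusted p = 0.0074). Every S100b-cell library lay far above both constitutive ones, which were nearly level. Rpp38, a protein subunit of the tRNA-processing enzyme RNase P, was at 10.03 and 7.26 CPM in the constitutive libraries and 61.5, 54.7 and 66.5 CPM in the S100b-cell libraries (log2 difference 2.81 ± 0.30 SE, edgeR adjusted p = 0.0074). Wasf2, a regulator of actin branching at the cell edge, was at 34.6 and 27.5 CPM in the constitutive libraries and 164, 164 and 177 CPM in the S100b-cell libraries (log2 difference 2.44 ± 0.28 SE, edgeR adjusted p = 0.00847). These 3 genes also stood higher in the S100b-cell tumours than in the constitutive MYC/Otx2 tumours, by log2 differences of 2.59, 2.24 and 2.01, in a comparison that shares the S100b-cell libraries and called 17.9% of all genes. In the N1ICD libraries, too, they were above all 5 constitutive libraries.

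**Figure D2:**
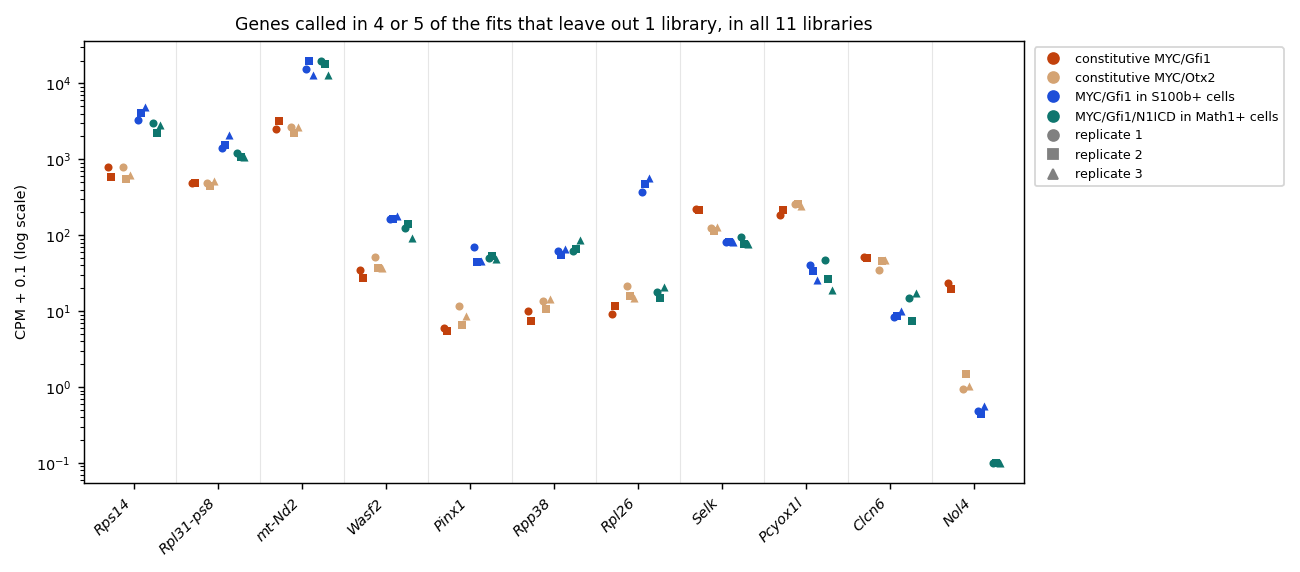
Level of 11 genes in each of the 11 libraries, as CPM plus 0.1 on a log axis, with colours for the groups and symbols for the replicates. The first 7 genes were called higher in each fit that leaves out 1 library, and the last 4, chosen after their values were seen, were called lower in 4 of the 5 fits. Except for Rpl26, the N1ICD libraries lie on the same side of the constitutive libraries as the S100b-cell libraries.

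Rpl26, a protein of the large ribosomal subunit at chr11:68901583-68906989, showed the smallest adjusted p of the named genes. It was at 9.09 and 11.6 CPM in the constitutive libraries and 369, 472 and 569 CPM in the S100b-cell libraries (log2 difference 5.50 ± 0.35 SE, edgeR adjusted p = 0.00026). The MYC/Otx2 libraries had 21.6, 15.6 and 14.7 CPM and the N1ICD libraries 18.01, 14.6 and 20.7 CPM, so the 3 S100b-cell libraries alone were high among the 11. Rps14, a small subunit protein, was at 782 and 591 CPM in the constitutive libraries and 3278, 4026 and 4933 CPM in the S100b-cell libraries (log2 difference 2.57 ± 0.28 SE, edgeR adjusted p = 0.0074). The pseudogene Rpl31-ps8 was at 485 and 482 CPM in the constitutive libraries and 1415, 1563 and 2087 CPM in the S100b-cell libraries (log2 difference 1.80 ± 0.22 SE, edgeR adjusted p = 0.0095). Ribosomal protein genes share reads with near-identical processed copies, and the handling of these reads in the counting is unknown, so these 3 values are uncertain.

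The 4 genes called lower in 4 of the 5 fits were Nol4, Pcyox1l, Clcn6 and Selk, chosen for naming after their values were seen. In each, every S100b-cell and N1ICD library was below all 5 constitutive libraries, and the call was lost without S100b-cell replicate 1 (adjusted p between 0.0507 and 0.0638 in edgeR). Nol4 was at 23.3 and 19.3 CPM in the constitutive libraries and 0.388, 0.346 and 0.469 CPM in the S100b-cell libraries (log2 difference -5.68 ± 0.59 SE, edgeR adjusted p = 0.0095). The MYC/Otx2 libraries held 0.848, 1.37 and 0.924 CPM of Nol4, near the S100b-cell level and far under constitutive MYC/Gfi1. Clcn6, an endosomal exchanger of chloride and protons, was at 51.3 and 50.7 CPM in the constitutive libraries and 8.35, 8.51 and 10.1 CPM in the S100b-cell libraries (log2 difference -2.50 ± 0.35 SE, edgeR adjusted p = 0.0131). Pcyox1l was at 184 and 212 CPM in the constitutive libraries and 40.7, 33.95 and 25.7 CPM in the S100b-cell libraries (log2 difference -2.56 ± 0.34 SE, edgeR adjusted p = 0.0119). The endoplasmic reticulum selenoprotein gene Selk was at 225 and 215 CPM in the constitutive libraries and 80.8, 80.3 and 81.5 CPM in the S100b-cell libraries (log2 difference -1.45 ± 0.19 SE, edgeR adjusted p = 0.0095), with libraries of each group nearly level.

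Some genes for building ribosomes rose. Ribosome assembly starts in the nucleolus, where RNA polymerase I makes the ribosomal RNA precursor, small nucleolar RNA proteins (snoRNP proteins) modify it, and separate factors assemble the small and large subunits. Over the 4 lists of such genes, 18 of 122 tested members were called higher and 0 lower (14.8%, against 2.34% of all genes). Every S100b-cell library was above both constitutive ones in 78 members (63.9%), against 22.4% of all genes (41.3% of all genes had no overlap in either direction). The small subunit list summed to 6643, 5236 and 5619.5 CPM in the MYC/Otx2 libraries and 6482, 5066 and 5507.5 CPM in the S100b-cell libraries. For the large subunit list these sums were 9991, 9823 and 10566 CPM against 9615, 8643 and 9443 CPM. The snoRNP and RNA polymerase I sums were lower in every MYC/Otx2 library than in every S100b-cell library. The medians of the 4 lists were 0.95 for snoRNP proteins, 0.60 for RNA polymerase I, 0.83 for the small subunit and 0.64 for the large subunit, beside 0.01 over all genes. Leaving out constitutive replicate 2 made them 0.59, 0.43, 0.76 and 0.37, beside 0.14 over all genes. None of the 18 calls was kept without that replicate or without S100b-cell replicate 1, 7 were kept without S100b-cell replicate 2, 1 without replicate 3, and all 18 without constitutive replicate 1.

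Of the 18 snoRNP genes 4 rose (22.2%, against 2.34% of all genes called higher). Dkc1, the enzyme that converts uridine to pseudouridine in ribosomal RNA, lies at chrX:75095854-75109777 and was at 438 and 483 CPM in the constitutive libraries and 1537, 1183 and 1638 CPM in the S100b-cell libraries (log2 difference 1.66 ± 0.24 SE, edgeR adjusted p = 0.0131). The adjusted p of Dkc1 lay between 0.0143 and 0.0585 over the edgeR fits that leave out 1 library. Nop58, a core protein of the particles that methylate ribosomal RNA, was at 226 and 113 CPM in the constitutive libraries and 769.7, 612 and 865 CPM in the S100b-cell libraries (log2 difference 2.14 ± 0.34 SE, edgeR adjusted p = 0.0179). Its partner Nop56 was at 162 and 102 CPM in the constitutive libraries and 389, 303 and 406 CPM in the S100b-cell libraries (log2 difference 1.47 ± 0.27 SE, edgeR adjusted p = 0.0243). Nolc1, a nucleolar chaperone of these particles, was at 251 and 142 CPM in the constitutive libraries and 632, 474 and 485 CPM in the S100b-cell libraries (log2 difference 1.44 ± 0.31 SE, edgeR adjusted p = 0.0336). In the last 3 genes constitutive replicate 2 was the lowest of the 5 libraries, and the groups overlapped in none of the 4. Nop10 was at 1119 and 1219 CPM in the constitutive libraries and 1219, 1449 and 1436 CPM in the S100b-cell libraries, and its adjusted p in edgeR was 0.742. Of 13 genes of RNA polymerase I and its factors edgeR called none, with 4 at an unadjusted p under 0.05 and 2 called by each of DESeq2 and limma-voom, and among them was Taf1d at 262 and 89.9 CPM in the constitutive libraries and 555, 431 and 554 CPM in the S100b-cell libraries (log2 difference 1.55 ± 0.48 SE, edgeR adjusted p = 0.0883).

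In the small subunit list 9 of 44 tested genes rose (20.5%, against 2.34% of all genes called higher) and none fell. In 33 of the 44 (75%, against 22.4% of all genes) every S100b-cell library was above both constitutive ones. The called genes were Mphosph10, Ddx10, Ddx21, Utp14a, Ddx52, Krr1, Wdr43, Tsr1 and Nop14. Mphosph10, a protein of the small subunit processing complex, was at 55.95 and 45.6 CPM in the constitutive libraries and 211, 147 and 153 CPM in the S100b-cell libraries (log2 difference 1.74 ± 0.28 SE, edgeR adjusted p = 0.0188). The RNA helicase gene Ddx21 was at 315 and 170.4 CPM in the constitutive libraries and 1317, 793 and 836 CPM in the S100b-cell libraries (log2 difference 2.02 ± 0.38 SE, edgeR adjusted p = 0.0257), highest in S100b-cell replicate 1. Ddx10, another helicase, was at 78.9 and 62.7 CPM in the constitutive libraries and 241, 173 and 239 CPM in the S100b-cell libraries (log2 difference 1.62 ± 0.26 SE, edgeR adjusted p = 0.0191). Rcl1, a factor of the same complex, was not called and stood at 292 and 327 CPM in the constitutive libraries and 225, 237 and 213 CPM in the S100b-cell libraries (log2 difference -0.46). In the large subunit list 5 of 47 genes rose (10.6%, against 2.34% of all genes) and none fell. The 5 were Wdr12, Nvl, Mdn1, Las1l and Noc2l. Wdr12, part of a complex needed to mature large subunit RNA, was at 137 and 102 CPM in the constitutive libraries and 298, 260.0 and 337 CPM in the S100b-cell libraries (log2 difference 1.32 ± 0.24 SE, edgeR adjusted p = 0.0243). Mdn1, a giant ATPase that strips assembly factors from the subunit, was at 89.4 and 60.6 CPM in the constitutive libraries and 219, 189 and 137 CPM in the S100b-cell libraries (log2 difference 1.28 ± 0.27 SE, edgeR adjusted p = 0.0336). The abundant nucleolar proteins nucleolin (Ncl) and nucleophosmin (Npm1) were not called, with log2 differences of 1.03 and 0.25. Npm1 was at 2429 and 666 CPM in the constitutive libraries and 1378, 2065 and 2063 CPM in the S100b-cell libraries, so constitutive replicate 1 held more than any S100b-cell library.

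**Figure D3:**
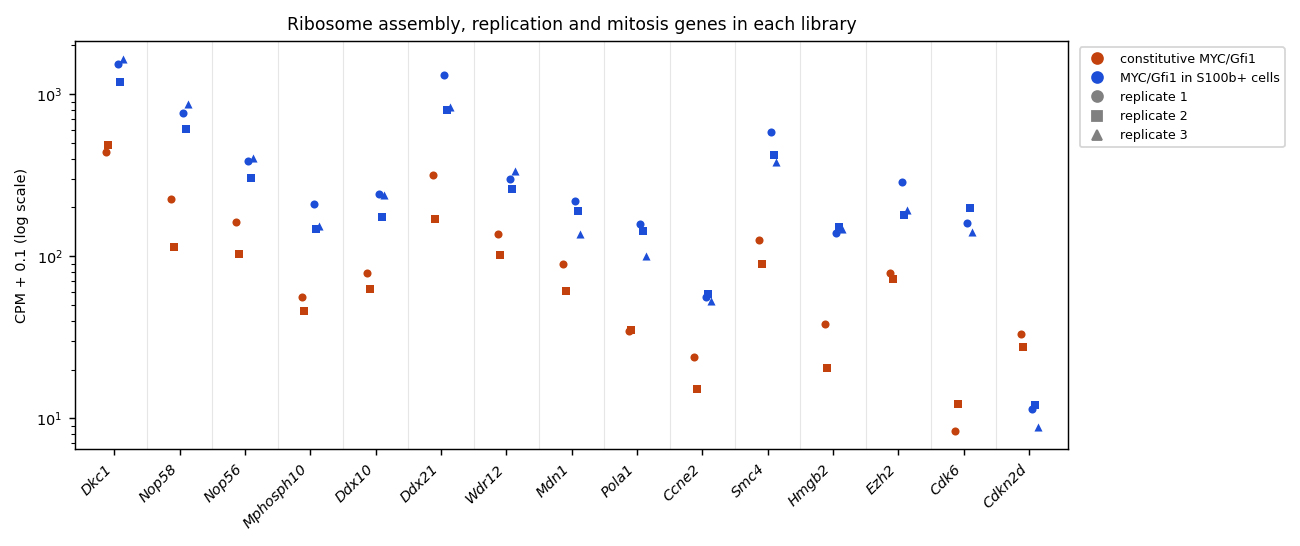
Level of 15 genes of ribosome assembly, replication, mitosis, chromatin and the G1 phase in the 5 libraries, as CPM plus 0.1 on a log axis, constitutive in orange and S100b-cell in blue, with symbols for the replicates. In 14 genes every S100b-cell library lies above both constitutive ones, and Cdkn2d shows the reverse order.

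MYC with its partner Max binds the E-box CACGTG, a palindrome that reads the same on both strands, so the promoters of the ribosome assembly genes were searched for these letters. The windows ran from 250 bases before to 50 after the transcript start, from RefSeq on GRCm38.p6, and 100 of the 122 tested members had one. The motif was present in 18 of the 100 genes (18.0%), against 8.09% of the 27025 genes and 7.15% of the 32851 windows in the promoter table. The latter shares cover all genes with a window, whether or not they were tested here, so they are no matched background. All 18 called members had a window, and the motif was present in 3 of them (16.7%) and not found in the other 15. These 3 are shown because they are the called genes with the motif, as 30 bases around it, with the motif in capitals and read on the + strand at chr17:71616220-71616249, chr4:32657139-32657168 and chr11:74898092-74898121. A match is a description of letters and no measurement of binding.
Wdr43: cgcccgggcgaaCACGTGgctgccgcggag
Mdn1: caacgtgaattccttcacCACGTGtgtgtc
Tsr1: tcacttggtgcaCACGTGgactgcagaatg
The motif starts 18 bases into the transcript in Wdr43, 39 in Mdn1 and 25 in Tsr1, counting the start site as 1.

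Genes of replication, mitosis and chromatin gave a few calls each, all of them higher in the S100b-cell tumours. For DNA replication and the entry into S phase, 3 of 43 tested genes rose (6.98%, against 2.34% of all genes) and none fell, with a median log2 difference of 0.81 (0.46 without constitutive replicate 2). Pola1, the catalytic subunit of the polymerase that starts new DNA strands, was at 34.6 and 34.9 CPM in the constitutive libraries and 159, 143 and 99.7 CPM in the S100b-cell libraries (log2 difference 1.95 ± 0.28 SE, edgeR adjusted p = 0.0131). Ccne2, a cyclin of the G1/S transition, was at 23.7 and 15.1 CPM in the constitutive libraries and 56.3, 58.5 and 53.02 CPM in the S100b-cell libraries (log2 difference 1.53 ± 0.35 SE, edgeR adjusted p = 0.0388). The groups did not overlap in either gene, and the third called member was Rfc1, which helps load the replication clamp (log2 difference 1.10). The 3 calls were kept without constitutive replicate 1, none without constitutive replicate 2 or S100b-cell replicate 1, and 1 without each of S100b-cell replicates 2 and 3. Mcm5, a subunit of the replicative helicase, was not called and was at 277 and 309.7 CPM in the constitutive libraries and 493, 302 and 252 CPM in the S100b-cell libraries, with S100b-cell replicate 3 below both constitutive libraries. The replication list summed to 4716, 3905 and 3914 CPM in the MYC/Otx2 libraries and 3880, 2898 and 2473 CPM in the S100b-cell libraries.

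Among genes of mitosis and the G2 phase 5 of 48 rose (10.4%, against 2.34% of all genes) and none fell. The median was 0.69, and without constitutive replicate 2 it was 0.19, beside 0.14 over all genes, with 30 of 48 members on the higher side. The summed level of the list overlapped between groups, with 6551 CPM in constitutive replicate 1 and 7958, 5701 and 5162 CPM in the S100b-cell libraries. In the MYC/Otx2 libraries the sum was 10537, 9470 and 9824.5 CPM, above every S100b-cell library. Smc4, a subunit of the condensin complex that compacts chromosomes, was at 125 and 89.8 CPM in the constitutive libraries and 584, 420.2 and 381 CPM in the S100b-cell libraries (log2 difference 2.10 ± 0.28 SE, edgeR adjusted p = 0.0123). Kif20b, a kinesin of cell division, was at 26.00 and 17.3 CPM in the constitutive libraries and 135, 88.5 and 88.4 CPM in the S100b-cell libraries (log2 difference 2.26 ± 0.33 SE, edgeR adjusted p = 0.0131). Hmgb2, a chromatin protein of dividing cells, was at 38.2 and 20.3 CPM in the constitutive libraries and 138, 151 and 147 CPM in the S100b-cell libraries (log2 difference 2.31 ± 0.30 SE, edgeR adjusted p = 0.0112) and was the 1 of the 5 still called without constitutive replicate 2 (adjusted p = 0.0469). The other calls were Hmmr and Nusap1, both spindle proteins. All 5 were kept without constitutive replicate 1, 3 without S100b-cell replicate 2, 3 without replicate 3 and 0 without replicate 1. Birc5, the inhibitor of apoptosis survivin, which also acts in mitosis, was not called and pointed the other way, with 1163 and 969 CPM in the constitutive libraries and 938, 622 and 675 CPM in the S100b-cell libraries (log2 difference -0.52).

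Chromatin regulators gave 5 rises and no falls among 36 tested genes (13.9%, against 2.34% of all genes), at a median of 0.39. They were Hmgb1, Hmgb2, Cbx3, Ezh2 and Smarcc1. The chromatin list summed to 6386, 5821 and 5957 CPM in the MYC/Otx2 libraries and 5104, 4348 and 4008.5 CPM in the S100b-cell libraries. Ezh2, the methyltransferase of Polycomb repressive complex 2, was at 78.2 and 72.3 CPM in the constitutive libraries and 286, 179 and 192 CPM in the S100b-cell libraries (log2 difference 1.54 ± 0.28 SE, edgeR adjusted p = 0.0243). Cbx3, a heterochromatin protein, was at 53.2 and 31.95 CPM in the constitutive libraries and 209, 140.4 and 125 CPM in the S100b-cell libraries (log2 difference 1.89 ± 0.31 SE, edgeR adjusted p = 0.0191). Hmgb1 and Cbx3 have near-identical processed copies in the genome, so their values are uncertain. Of the 5, only Hmgb2 stayed called without constitutive replicate 2, and without S100b-cell replicate 1 none did.

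Of the genes of the G1 phase, 1 kinase was called higher and 1 inhibitor lower. Cdk6, a kinase that works with D-type cyclins, lies at chr5:3341485-3531008 and was at 8.28 and 12.2 CPM in the constitutive libraries and 161, 199 and 142 CPM in the S100b-cell libraries (log2 difference 4.03 ± 0.79 SE, edgeR adjusted p = 0.0286). Cdkn2d, an inhibitor of Cdk4 and Cdk6, was at 32.9 and 27.6 CPM in the constitutive libraries and 11.3, 12.03 and 8.76 CPM in the S100b-cell libraries (log2 difference -1.50 ± 0.29 SE, edgeR adjusted p = 0.0274). Every S100b-cell library was above both constitutive ones for Cdk6 and below both for Cdkn2d. Cdk6 and Cdkn2d were the only calls among 15 tested genes of this class (6.67% higher and 6.67% lower, against 2.34% and 2.01% of all genes). On the higher side were 13 of the 15, with a median log2 difference of 0.64. Another inhibitor, Cdkn1a, was not called and was higher in every S100b-cell library than in both constitutive ones (log2 difference 1.53). Cdk4 was at 169 and 171 CPM in the constitutive libraries and 309.9, 254 and 234 CPM in the S100b-cell libraries (log2 difference 0.64 ± 0.25 SE, edgeR adjusted p = 0.148), with groups that did not overlap and no call. Cdk6 lost its call in each of the 5 fits that leave out 1 library, with an adjusted p between 0.0574 and 0.122 in edgeR, and Cdkn2d kept its call only without constitutive replicate 1.

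Nucleotide synthesis, translation and protein folding showed a few rises each. Rrm1, a subunit of ribonucleotide reductase, was at 53.4 and 26.9 CPM in the constitutive libraries and 160.2, 114 and 109 CPM in the S100b-cell libraries (log2 difference 1.67 ± 0.34 SE, edgeR adjusted p = 0.0304), and with the thymidine kinase gene Tk1 it made up the 2 calls among 28 nucleotide synthesis genes (7.14%, against 2.34% of all genes called higher). The nucleotide synthesis list summed to 5714, 4635 and 5183 CPM in the MYC/Otx2 libraries and 3665, 3281.5 and 3215 CPM in the S100b-cell libraries. The chaperone list, whose members are not all cytosolic, had 4 rises of 27 genes (14.8%), namely Hsp90aa1, Cct6a, Hspe1 and Tcp1. Hsp90aa1, the stress-inducible form of the chaperone Hsp90, was at 549 and 734 CPM in the constitutive libraries and 1935, 1540.4 and 1478 CPM in the S100b-cell libraries (log2 difference 1.36 ± 0.26 SE, edgeR adjusted p = 0.0269). All 4 were kept only without constitutive replicate 1. The constant form Hsp90ab1 was not called (log2 difference 0.53). Eprs, the tRNA synthetase for glutamate and proline, was at 378 and 333 CPM in the constitutive libraries and 1111, 974 and 1023 CPM in the S100b-cell libraries (log2 difference 1.54 ± 0.19 SE, edgeR adjusted p = 0.0095) and lost its call only without S100b-cell replicate 1 (adjusted p = 0.0507). The other call among 25 genes of the amino acid stress response (8.0% called) was Sars, the serine tRNA synthetase, and Atf4, the factor that drives that response, was not called (log2 difference 0.18).

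Translation factors gave 3 rises (10.3%, against 2.34% of all genes) and 1 fall among 29 genes, and the members of 1 pair split. Eif3a, a subunit of the initiation factor that binds the small subunit, was at 369 and 220.2 CPM in the constitutive libraries and 983, 743 and 866 CPM in the S100b-cell libraries (log2 difference 1.55 ± 0.26 SE, edgeR adjusted p = 0.0207). Eef1a1, the elongation factor form of most tissues, was at 33.7 and 49.4 CPM in the constitutive libraries and 116, 88.2 and 99.9 CPM in the S100b-cell libraries (log2 difference 1.29 ± 0.26 SE, edgeR adjusted p = 0.0299). Eef1a2, the form of neurons and muscle, was at 57.8 and 189 CPM in the constitutive libraries and 0.129, 6.43 and 3.60 CPM in the S100b-cell libraries (log2 difference -5.19 ± 1.16 SE, edgeR adjusted p = 0.0377). The enolases of glycolysis split in the same way: the widely expressed Eno1 was at 19.7 and 22.5 CPM in the constitutive libraries and 64.96, 74.6 and 75.8 CPM in the S100b-cell libraries (log2 difference 1.77 ± 0.29 SE, edgeR adjusted p = 0.0188), and the neuronal Eno2 was at 17.1 and 394 CPM in the constitutive libraries and 2.33, 8.30 and 8.60 CPM in the S100b-cell libraries (log2 difference -5.00 ± 1.13 SE, edgeR adjusted p = 0.039). Without constitutive replicate 2 none of these 4 paralogues was called, and the log2 differences of Eef1a2 and Eno2 were -4.08 and -1.41. Eef1a1 and Eno1 share sequence with processed copies, so their levels are uncertain.

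Transcripts of the mitochondrial genome were higher in each S100b-cell library. They made up 14.7% to 18.5% of counts there, 5.96% and 6.00% in the constitutive MYC/Gfi1 libraries, 5.18% to 5.74% in the MYC/Otx2 libraries and 23.2% to 27.6% in the N1ICD libraries. All 9 tested genes had every S100b-cell library above both constitutive ones, against 22.4% of all genes. Of them 7 were called (77.8%, against 2.34% of all genes called higher), and the list's median log2 difference was 1.39. mt-Nd2, a complex I subunit, was at 2493 and 3231 CPM in the constitutive libraries and 15506, 19848 and 13085 CPM in the S100b-cell libraries (log2 difference 2.50 ± 0.28 SE, edgeR adjusted p = 0.0074). The ribosomal RNA mt-Rnr2 was at 14092 and 17346 CPM in the constitutive libraries and 44114, 43293 and 36360.0 CPM in the S100b-cell libraries (log2 difference 1.39 ± 0.22 SE, edgeR adjusted p = 0.0179). The 7 calls were all kept without constitutive replicate 1, 2 without replicate 2, and 1, 3 and 3 without S100b-cell replicates 1, 2 and 3. Leaving out these genes gave 670 calls in place of 663, and the part of this share in the other results was not tested further. Of the nuclear genes for the respiratory chain 1 of 50 was called higher (2.0%, against 2.34% of all genes). It was Atp5h, a subunit of the ATP synthase (log2 difference 0.99). In 24 of the 50 every S100b-cell library was above both constitutive ones and in none below, a share of 48.0% against 22.4% of all genes.

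In 4 lists of neuronal genes, 12 of the 306 lower calls were found, with none higher. Of 31 genes for synaptic vesicles and neurosecretion 6 fell and none rose (19.4%, against 2.01% of all genes called lower), with a median log2 difference of -3.90. In 24 of them every S100b-cell library was below both constitutive ones (77.4%, against 18.9% of all genes). Of 38 genes of the neuronal cytoskeleton and differentiation 4 fell (10.5%) and none rose, at a median of -2.94. The same markers were much higher in constitutive replicate 2 than in replicate 1, with 8191 against 1542 CPM summed over the synaptic list, while the S100b-cell libraries had 184, 736 and 337 CPM. Without constitutive replicate 2 the medians were -1.56 and -1.19, with 26 of 31 and 34 of 38 genes on the lower side, and no gene of either list was called. In bulk tissue, fewer cells of a type and less RNA per cell cannot be told apart.

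**Figure D4:**
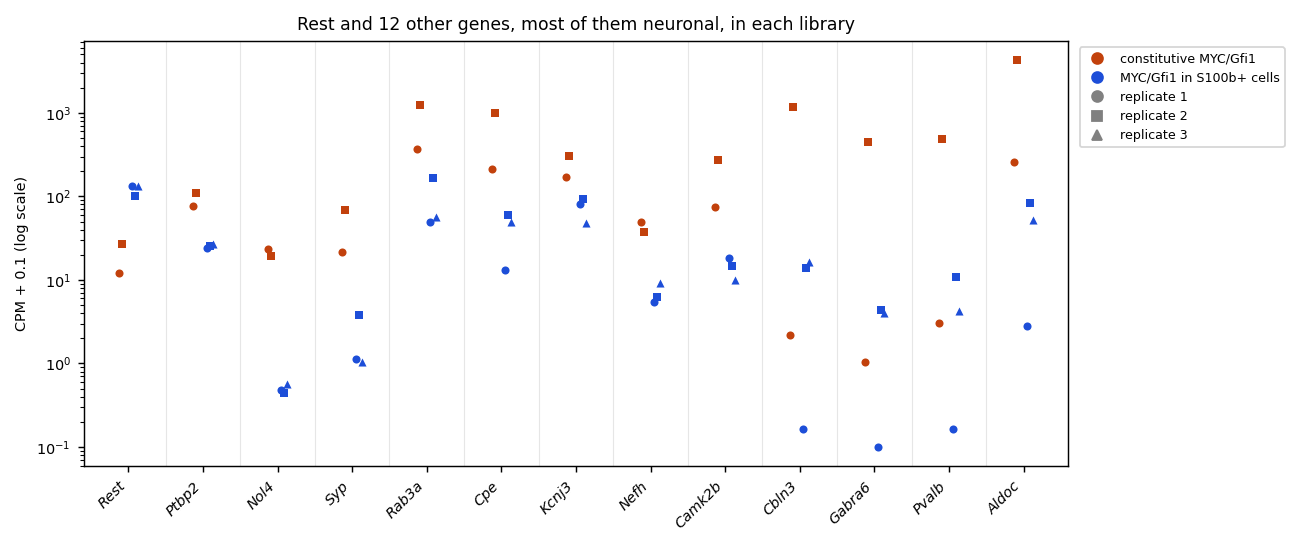
Level of Rest and 12 other genes in the 5 libraries, as CPM plus 0.1 on a log axis, constitutive in orange and S100b-cell in blue, with symbols for the replicates. From Ptbp2 to Camk2b both constitutive libraries lie above every S100b-cell library. From Cbln3 to Pvalb constitutive replicate 1 lies within or near the S100b-cell range and replicate 2 far above it.

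Rab3a, a GTPase that steers synaptic vesicles to release, lies at chr8:70754679-70758677 and was at 372 and 1250.1 CPM in the constitutive libraries and 48.98, 166 and 57.1 CPM in the S100b-cell libraries (log2 difference -3.16 ± 0.59 SE, edgeR adjusted p = 0.0263). Syp, the vesicle membrane protein synaptophysin, was at 21.3 and 68.1 CPM in the constitutive libraries and 1.04, 3.73 and 0.938 CPM in the S100b-cell libraries (log2 difference -4.54 ± 0.88 SE, edgeR adjusted p = 0.0271). Cpe, the carboxypeptidase that trims neuropeptides, was at 213 and 990.0 CPM in the constitutive libraries and 13.1, 59.5 and 49.8 CPM in the S100b-cell libraries (log2 difference -3.88 ± 0.73 SE, edgeR adjusted p = 0.0269). In these 3 genes both constitutive libraries were above every S100b-cell library, and constitutive replicate 2 was the highest. Leaving it out gave log2 differences of -2.03, -3.47 and -2.38 for Rab3a, Syp and Cpe. Nsf, an ATPase that takes apart the fusion machinery, and Chga, a protein of secretory granules, were also called. The 6 calls were all kept without constitutive replicate 1, 3 without S100b-cell replicate 2, and 0 without constitutive replicate 2 or S100b-cell replicate 1 or 3. Snap25, another fusion protein, was not called and was at 45.5 and 789.5 CPM in the constitutive libraries and 0.129, 32.02 and 12.6 CPM in the S100b-cell libraries, with a log2 difference of -4.81.

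Of the called genes of the neuronal cytoskeleton and differentiation, Nefh, the heavy chain of neurofilaments, was at 49.5 and 37.6 CPM in the constitutive libraries and 5.37, 6.15 and 9.15 CPM in the S100b-cell libraries (log2 difference -2.66 ± 0.63 SE, edgeR adjusted p = 0.0429). Here the constitutive libraries were close to each other, and the log2 difference was -2.84 without constitutive replicate 2 (adjusted p = 0.12 in edgeR). Camk2b, a calcium-dependent kinase of synapses, was at 73.7 and 273 CPM in the constitutive libraries and 18.1, 14.6 and 9.93 CPM in the S100b-cell libraries (log2 difference -3.61 ± 0.83 SE, edgeR adjusted p = 0.0411). Nptxr, a receptor of neuronal pentraxins, was at 37.5 and 774 CPM in the constitutive libraries and 2.78, 9.61 and 3.05 CPM in the S100b-cell libraries (log2 difference -6.30 ± 1.36 SE, edgeR adjusted p = 0.0353). Rasgrf1, a neuronal activator of Ras, was at 32.6 and 337 CPM in the constitutive libraries and 0.582, 2.90 and 4.22 CPM in the S100b-cell libraries (log2 difference -6.17 ± 1.29 SE, edgeR adjusted p = 0.0327). For the last 3 genes constitutive replicate 2 was the highest by far, and without it their log2 differences were -2.36, -2.85 and -3.66. Of the 4 calls 3 were kept without constitutive replicate 1 and none when any other library was left out. Of the channel genes 1 fell: Kcnj3, a potassium channel opened by G proteins, was at 170.1 and 301 CPM in the constitutive libraries and 80.2, 91.8 and 48.6 CPM in the S100b-cell libraries (log2 difference -1.68 ± 0.38 SE, edgeR adjusted p = 0.0375). This single fall made up 3.70% of the channel genes, against 2.01% of all genes called lower. The medians of the 24 receptor and 27 channel genes were -3.63 and -2.53, and -1.27 and 0.10 without constitutive replicate 2.

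Differences in markers of mature cerebellar neurons rested on constitutive replicate 2. By edgeR none of 14 mature granule neuron genes, 12 Purkinje cell genes or 12 genes of interneurons and unipolar brush cells was called, although the medians were -4.75, -3.99 and -3.58. Of their 37 distinct genes, 24 had an unadjusted p under 0.05, DESeq2 called 17 and limma-voom 2. Gabra6, a GABA receptor subunit of granule neurons, was at 0.933 and 446 CPM in the constitutive libraries and 0, 4.29 and 3.91 CPM in the S100b-cell libraries (log2 difference -6.35 ± 2.08 SE, edgeR adjusted p = 0.104). Cbln3, a synaptic organiser of the same cells, was at 2.10 and 1159 CPM in the constitutive libraries and 0.0647, 13.7 and 16.1 CPM in the S100b-cell libraries (log2 difference -5.87 ± 2.29 SE, edgeR adjusted p = 0.154). Pvalb, a calcium buffer of Purkinje cells and interneurons, was at 2.91 and 482 CPM in the constitutive libraries and 0.0647, 10.9 and 4.14 CPM in the S100b-cell libraries (log2 difference -5.59 ± 2.02 SE, edgeR adjusted p = 0.129). In these genes constitutive replicate 1 lay among the S100b-cell libraries, and S100b-cell replicate 1 was the lowest of all. Without constitutive replicate 2 the 3 medians were 0.47, 0.65 and 0.69. The part of normal cerebellum in the differences of other neuronal genes was not tested.

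Rest, the repressor that silences neuronal genes in cells that are not neurons, lies at chr5:77265491-77286432 and was named after its values were seen. It was at 11.9 and 26.9 CPM in the constitutive libraries and 132, 100.2 and 134 CPM in the S100b-cell libraries (log2 difference 2.65 ± 0.41 SE, edgeR adjusted p = 0.0177). Every S100b-cell library held several times the level of either constitutive library, and the log2 difference was 3.36 without constitutive replicate 2 (adjusted p = 0.0386). The call was lost without S100b-cell replicate 1 (0.0585) and replicate 3 (0.0555). The N1ICD libraries had 140, 105 and 84.8 CPM of Rest and the MYC/Otx2 libraries 47.2, 31.0 and 32.9 CPM. The order of Rest thus followed the library sets too. Ptbp2, a splicing regulator of neurons, was at 77.6 and 108 CPM in the constitutive libraries and 23.7, 25.3 and 26.7 CPM in the S100b-cell libraries (log2 difference -1.88 ± 0.33 SE, edgeR adjusted p = 0.0225) and was the only gene called among 35 splicing factors. In Ptbp2 the 3 S100b-cell libraries were nearly level and below both constitutive ones, and its call was kept only without constitutive replicate 1. The MYC/Otx2 libraries had 67.5, 131 and 147 CPM of Ptbp2 and the N1ICD libraries 27.0, 29.6 and 36.9 CPM. This single call made up 2.86% of the splicing factors, against 2.01% of all genes called lower.

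Sox3 and Sox1 showed the largest falls among the called genes named here. Both belong to the SoxB1 factors, which keep neural progenitors undifferentiated. Sox3 lies at chrX:60891366-60893430 and was at 176 and 73.3 CPM in the constitutive libraries and 0, 0.277 and 0.547 CPM in the S100b-cell libraries (log2 difference -8.80 ± 1.83 SE, edgeR adjusted p = 0.0319). Sox1 lies at chr8:12395295-12400126 and was at 94.3 and 19.03 CPM in the constitutive libraries and 0.194, 0.277 and 0.313 CPM in the S100b-cell libraries (log2 difference -7.69 ± 1.75 SE, edgeR adjusted p = 0.0391). Both were well detected in both constitutive libraries, higher in replicate 1, and under 1 CPM in every S100b-cell library. They were the only calls among 26 tested progenitor factors of the Sox and Pax families and related genes, whose median was -0.37. Their share was 7.69%, against 2.01% of all genes called lower. Sox3 kept its call only without constitutive replicate 1, and Sox1 in none of the fits that leave out 1 library (adjusted p between 0.06 and 0.13). Against constitutive MYC/Otx2 tumours the S100b-cell tumours were lower for Sox3 by a log2 difference of -8.17 and for Sox1 by -2.18, the latter with an adjusted p of 0.35 in edgeR.

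Other large falls were those of Olfm3, Iglon5, Cacng7, Aard and Tmem145. Olfm3, which codes for a secreted olfactomedin protein, was at 29.4 and 123 CPM in the constitutive libraries and 0.712, 1.31 and 1.17 CPM in the S100b-cell libraries (log2 difference -6.14 ± 1.31 SE, edgeR adjusted p = 0.0343), with a log2 difference of -4.76 without constitutive replicate 2. Iglon5, a neuronal adhesion protein, was at 0.816 and 134 CPM in the constitutive libraries and 0.259, 0.484 and 0.704 CPM in the S100b-cell libraries (log2 difference -7.10 ± 1.58 SE, edgeR adjusted p = 0.0375), so constitutive replicate 2 alone was high, and without it the log2 difference was -0.74 (adjusted p = 0.825). Cacng7, an accessory subunit of AMPA receptors, was at 2.91 and 67.2 CPM in the constitutive libraries and 0, 0.761 and 0.391 CPM in the S100b-cell libraries (log2 difference -6.47 ± 1.44 SE, edgeR adjusted p = 0.0373) and behaved likewise, with a log2 difference of -2.87 without that replicate. Aard was at 76.00 and 8.71 CPM in the constitutive libraries and 0.388, 0.692 and 0.704 CPM in the S100b-cell libraries (log2 difference -6.12 ± 0.95 SE, edgeR adjusted p = 0.0179), highest in constitutive replicate 1, and was called without replicate 2 (adjusted p = 0.0155). Without replicate 1 its log2 difference was -3.82 (adjusted p = 0.0362), and its call was lost without each S100b-cell library (adjusted p between 0.0511 and 0.072). Tmem145 was at 10.8 and 59.4 CPM in the constitutive libraries and 0.259, 0.830 and 0.235 CPM in the S100b-cell libraries, with a log2 difference of -6.26, and -4.56 without constitutive replicate 2 (adjusted p = 0.188).

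On the higher side the largest difference among the called genes named here was that of Twist2, a factor of mesenchymal cells. No count of Twist2 was found in either constitutive library, and the S100b-cell libraries held 4.72, 48.6 and 27.6 CPM. Against a floor of 3 counts over the constitutive group it was at least 136-fold higher (edgeR adjusted p = 0.0362). Slc6a2, the noradrenaline transporter, was at 0.350 and 0 CPM in the constitutive libraries and 3.43, 20.6 and 11.8 CPM in the S100b-cell libraries (log2 difference 5.90 ± 1.31 SE, edgeR adjusted p = 0.0373). Ptgis, which makes prostacyclin, was at 7.11 and 3.05 CPM in the constitutive libraries and 13.01, 118 and 128 CPM in the S100b-cell libraries (log2 difference 4.08 ± 0.95 SE, edgeR adjusted p = 0.0429). In these 3 genes S100b-cell replicate 1 was well below replicates 2 and 3, and above both constitutive libraries, as the naming rule required. Fig4, a phosphatase of endosomal lipids, was at 1.75 and 3.63 CPM in the constitutive libraries and 27.7, 34.9 and 25.3 CPM in the S100b-cell libraries (log2 difference 3.44 ± 0.60 SE, edgeR adjusted p = 0.0225). Tmem98, at 4.31 and 4.36 CPM in the constitutive libraries and 59.9, 31.4 and 31.7 CPM in the S100b-cell libraries, and Acot2, a thioesterase of mitochondria, at 7.93 and 4.50 CPM in the constitutive libraries and 43.2, 44.9 and 69.98 CPM in the S100b-cell libraries, had log2 differences of 3.24 and 3.08. The MYC/Otx2 libraries held 68.4, 71.6 and 72.8 CPM of Ptgis and 49.4, 32.9 and 34.3 CPM of Tmem98. Against the MYC/Otx2 tumours these 2 genes differed by a log2 of only 0.28 and 0.08. For Twist2, Slc6a2, Fig4 and Acot2 that log2 difference was 6.71, 3.07, 2.26 and 2.87. None of these 6 was called without constitutive replicate 2. Twist2 was the only call among 23 genes of mesenchymal transition and cadherins (4.35%, against 2.34% of all genes called higher), whose median was 0.83. None of 32 genes of fibroblasts and matrix was called (median 0.38).

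Immunoglobulin transcripts separated the groups in each library. They took 0.737% and 0.14% of counts in constitutive replicates 1 and 2 and at most 0.0229% in an S100b-cell library. Igha, the constant region of IgA, lies at chr12:113254830-113260236 and was at 2873 and 587 CPM in the constitutive libraries and 1.29, 2.90 and 27.8 CPM in the S100b-cell libraries (log2 difference -7.35 ± 1.37 SE, edgeR adjusted p = 0.0309). Mzb1, a chaperone of antibody-secreting cells, was at 100.4 and 55.9 CPM in the constitutive libraries and 0.712, 0.761 and 5.40 CPM in the S100b-cell libraries (log2 difference -5.09 ± 1.15 SE, edgeR adjusted p = 0.0391). Igj, the joining chain, was at 1412 and 208 CPM in the constitutive libraries and 0.518, 1.52 and 30.9 CPM in the S100b-cell libraries (log2 difference -6.21 ± 1.58 SE, edgeR adjusted p = 0.0545). In all 3 genes constitutive replicate 1 was the highest and S100b-cell replicate 3 the highest of its group. Igha and Mzb1 were the 2 calls among 12 tested genes of B and plasma cells (16.7%, against 2.01% of all genes called lower). The median of these genes was -4.38, and -4.91 without constitutive replicate 2. Igha stayed called without constitutive replicate 1 or S100b-cell replicate 3, and Mzb1 in none of the fits that leave out 1 library. Leaving out the immunoglobulin genes gave 672 calls.

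**Figure D5:**
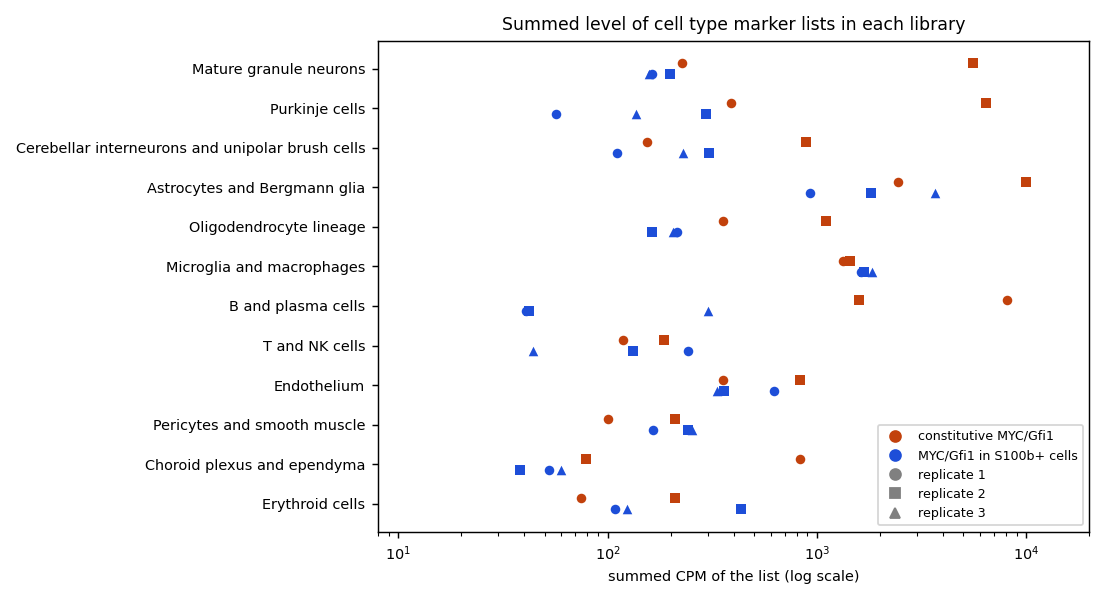
Summed CPM of 12 cell type marker lists in each of the 5 libraries, on a log axis, constitutive in orange and S100b-cell in blue, with symbols for the replicates. Constitutive replicate 2 is the highest for granule neurons, Purkinje cells, astrocytes and oligodendrocytes, both constitutive libraries are above the S100b-cell libraries for B and plasma cells, and the 5 libraries are close for microglia and macrophages. Aldoc, a member of both the Purkinje cell and astrocyte lists, holds 4280.5 CPM of that replicate's sums of 6404 and 10003 CPM.

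Other cell types gave few calls. Microglia and macrophage markers summed to 1327 and 1443 CPM in the constitutive libraries and to 1631, 1668 and 1826 CPM in the S100b-cell libraries, with 0 of 26 genes called by edgeR (2 at an unadjusted p under 0.05). The MHC class II genes, which present antigen, had a median log2 difference of 0.99 and 0 calls among 12, and their sums were 429 and 383 CPM against 749, 887 and 794 CPM. Both marker sums were without overlap, while sums for T and NK cells (118 and 185 CPM against 242, 132 and 43.8 CPM) overlapped. Among 26 astrocyte and Bergmann glia genes 1 was called, Atp1b2, a subunit of the sodium pump, at 33.1 and 239.7 CPM in the constitutive libraries and 4.98, 6.85 and 9.70 CPM in the S100b-cell libraries (log2 difference -4.25 ± 0.81 SE, edgeR adjusted p = 0.0269), and without constitutive replicate 2 its log2 difference was -2.20 (adjusted p = 0.161). The summed level of the list was 2425 and 10003 CPM in the constitutive libraries and 924, 1815 and 3667 CPM in the S100b-cell libraries, so S100b-cell replicate 3 lay above constitutive replicate 1. Mbp, a protein of myelin, was the only call among 17 oligodendrocyte genes, at 186 and 247 CPM in the constitutive libraries and 56.1, 85.3 and 75.7 CPM in the S100b-cell libraries (log2 difference -1.58 ± 0.35 SE, edgeR adjusted p = 0.036). Atp1b2 and Mbp made up 3.85% and 5.88% of their lists, against 2.01% of all genes called lower. Endothelial, pericyte, choroid plexus and erythroid genes gave 0 calls in edgeR among 23, 16, 11 and 7. Choroid plexus and ependyma genes summed to 827 and 78.9 CPM in the constitutive libraries and 52.6, 37.97 and 59.9 CPM in the S100b-cell libraries. In 5 of the 11 (45.5%, against 18.9% of all genes) every S100b-cell library was below both constitutive ones. Their median log2 difference was -1.70, and 0.01 without constitutive replicate 1.

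By edgeR the genes named in the labels gave no call, while DESeq2 called Myc (adjusted p = 0.00412). S100b was at 25.6 and 557 CPM in the constitutive libraries and 1.23, 27.7 and 63.8 CPM in the S100b-cell libraries (log2 difference -3.24 ± 1.48 SE, edgeR adjusted p = 0.218). The S100b-cell libraries thus spanned a range that included constitutive replicate 1, and constitutive replicate 2, with its high sum for astrocyte genes, was above all of them. Myc was at 27.5 and 11.04 CPM in the constitutive libraries and 4.21, 2.01 and 3.75 CPM in the S100b-cell libraries (log2 difference -2.53 ± 0.66 SE, edgeR adjusted p = 0.0571), lower in every S100b-cell library, with its level in the MYC/Otx2 libraries at 128, 31.5 and 66.4 CPM. Gfi1 was at 3.61 and 3.05 CPM in the constitutive libraries and 13.9, 2.07 and 3.99 CPM in the S100b-cell libraries (log2 difference 1.00 ± 1.04 SE, edgeR adjusted p = 0.605), with S100b-cell replicate 1 the highest and replicate 2 the lowest. These counts are of the mouse genes near their 3′ ends, and whether they include transgene transcripts is unknown here. Among 14 factors of the MYC and MAX network edgeR called 0, with 5 at an unadjusted p under 0.05, DESeq2 called 4 and limma-voom 1, and Max was at 278 and 145 CPM in the constitutive libraries and 154, 147 and 144 CPM in the S100b-cell libraries (log2 difference -0.51).

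Tumour subgroup and signalling genes gave hardly any calls. Neurod1, a factor of the cerebellar granule lineage, was found in each library, at 83.00 and 482 CPM in the constitutive libraries and 3.43, 123 and 9.30 CPM in the S100b-cell libraries (log2 difference -2.64 ± 1.35 SE, edgeR adjusted p = 0.265), and Zic1, of the same lineage, was at 22.8 and 1626 CPM in the constitutive libraries and 2.52, 123 and 39.1 CPM in the S100b-cell libraries, so both ranges overlapped. In the lists of Group 3 and Group 4 markers (19 tested genes), WNT and SHH markers (16), retinal genes (19), the BMP and TGF-beta pathway (32), midbrain and hindbrain identity (19) and granule cell progenitors (21), none was called. The same held for p53 targets (23), whose median was 0.96, and 0.54 without constitutive replicate 2. In 10 of them (43.5%, against 22.4% of all genes) every S100b-cell library was above both constitutive ones, among them Cdkn1a, the inhibitor p21, at 33.3 and 86.4 CPM in the constitutive libraries and 189, 113 and 217 CPM in the S100b-cell libraries (log2 difference 1.53 ± 0.52 SE, edgeR adjusted p = 0.112). Of 26 Notch pathway genes 1 fell, Rfng, an enzyme that adds sugars to Notch receptors, at 43.7 and 45.3 CPM in the constitutive libraries and 12.5, 19.2 and 16.03 CPM in the S100b-cell libraries (log2 difference -1.48 ± 0.34 SE, edgeR adjusted p = 0.0391). Of 38 axon guidance genes 1 fell, the semaphorin receptor Plxna3, at 21.3 and 19.5 CPM in the constitutive libraries and 5.24, 4.15 and 3.91 CPM in the S100b-cell libraries (log2 difference -2.20 ± 0.39 SE, edgeR adjusted p = 0.024). Of 28 apoptosis regulators 1 fell, Bad, a protein that promotes cell death, with a log2 difference of -1.19. These single falls made up 3.85% of the Notch, 2.63% of the axon guidance and 3.57% of the apoptosis genes. Of all genes 2.01% were called lower. Over all 55 lists, 28 had no call, 12 had calls on the higher side only, 12 on the lower side only and 3 on both. The lists with no call held 485 distinct tested genes, of which 81 had an unadjusted p under 0.05, DESeq2 called 54 and limma-voom 18.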

How the data were processed

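Total RNA was extracted with TRIzol and made into QuantSeq 3′ forward libraries with unique molecular identifiers, per the labels' protocols. STAR 2.4.1d, HTSeq 0.6.1 and the build mm10 are named, per the submitters' processing notes. Annotation release, strand setting and collapse of identifiers are not stated. The authors deposited raw counts per gene symbol, used as they are, and antisense or overlapping genes were not separated.

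The 11 libraries in 4 groups were fitted together in edgeR 4.0.16 (R 4.3.3) with filterByExpr, TMM scaling and robust quasi-likelihood tests, since the constitutive MYC/Gfi1 group has 2 libraries (common BCV 0.562, residual df 7). P-values were two-sided and adjusted by Benjamini-Hochberg over all tested genes, and called at 0.05. The SE is the log2 difference divided by the root of F. CPM used TMM-scaled totals of tested genes. The floor used for Twist2 covers counting error only. Within groups, the chi-square per df between libraries was 42 or more, so none were copies.

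The 55 gene lists (1402 symbols, 1390 in the table) and the comparison were chosen with earlier results of these data known. Lists are described by counts and medians, without a test. Named genes included those in the labels. Called genes with a mean of 10 CPM or more in the higher group, no overlap and no numbered gene model were then taken. From these came the 10 largest rises and falls, and the calls kept in each fit leaving out 1 library. Each list gave up to 4 called genes with the smallest p and 2 uncalled ones with the highest CPM. Others are marked as such, and some genes the rule gave are not reported here. The 15 alternatives included DESeq2 1.42.0 and limma-voom (limma 3.58.1). The fit was tested on simulated counts.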

Additional observations from a re-analysis of the deposited data

How the results depend on the processing

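The number of genes called moved with the fit, while none of the called genes open to naming changed direction in any alternative that tested it. Against 663 calls (357 higher, 306 lower), DESeq2 gave 2306 (971 and 1335), limma-voom 1398 (690 and 708), and edgeR on the 5 libraries alone 0 (0 and 0). Without the low-count filter there were 457, of which 229 were higher. Leaving out 1 library gave 12 to 1995 calls, of which 12 to 934 were higher and 0 to 1061 lower. Of the 86 called genes that the naming rule gave or that were added to it, 75 kept their call without constitutive replicate 1, 17 without constitutive replicate 2, and 9, 34 and 23 without S100b-cell replicates 1, 2 and 3. With a replicate block, 102 genes were called (63 higher, 39 lower), 98 of them also called without it. Deviations of the same-numbered libraries correlated at 0.0946 and 0.139 over only 2 pairs, so the numbers were not taken to pair the libraries. RLE and upper-quartile factors shifted the median of all genes from 0.01 to -0.07 and 0.10. Of the 27 lists with a call, the medians of 4 changed sign in an alternative, and the cause was not tested. Of the 28 lists with no call, 20 changed sign when 1 library was left out, among them mature granule neurons (-5.88 to 0.47) and Purkinje cells (-4.96 to 0.65). Leaving out 1 library gave -0.0322 (constitutive replicate 2) to 0.836 for splicing factors, -3.04 to 0.10 (constitutive replicate 2) for neuronal ion channels, and -0.65 to 0.28 (constitutive replicate 1) for axon guidance. The median of apoptosis regulators, -0.08 in the fit reported, was 0.16 with limma-voom, 0.0267 with the replicate block and 0.0129 with upper-quartile factors. Leaving out 1 library gave it -0.0526 to 0.52, above 0 without constitutive replicate 1 (0.52), constitutive replicate 2 (0.0037) and S100b-cell replicate 3 (0.041). The 2 constitutive libraries, with 7.53 and 6.53 M counts, limit what can be seen of genes at low levels in that group.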
